A study of Rattus norvegicus with 50 samples.

Results

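The expression of 9 genes of threonine, serine and glycine metabolism, of 13490 genes measured, was followed in the lungs of rats that had inhaled nickel subsulfide (Ni3S2), a poorly soluble nickel compound. The genes were Tdh, Gcat, Phgdh, Psat1, Psph, Shmt1, Shmt2, Mthfd2 and Gnmt, taken as a named set. Each was read from the probe set with its symbol in the platform's gene table, or, for Shmt1, from the brighter of its 2 probe sets. Tdh had been picked out by its change at 0.15 mg/m3 after 4 weeks, so that comparison is described for all 9 genes with no test, and so are the other 4-week values of Tdh.

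Male Fischer 344 rats, aged 7 to 8 weeks on receipt, breathed Ni3S2 aerosol at 0.04 mg/m3 (0.03 mg of nickel), 0.08 mg/m3 (0.06 mg of nickel), 0.15 mg/m3 (0.11 mg of nickel) or 0.60 mg/m3 (0.44 mg of nickel), or air with none, for 6 hours on 5 days of each week. Exposure ran for 1 week, with 5 days in the chamber, or 4 weeks, with 20, and controls at 0 mg/m3 were kept for each time, which gave 10 groups. Of 13 rats in a group, 8 were set aside for expression and nickel burden, and the 5 whose RNA was best were put on Affymetrix HT rat arrays, so that n = 5 in every group and each array is 1 animal. The tissue was dissected around the distal airways and alveoli of the right caudal lobe, and it holds many cell types.

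Threonine dehydrogenase (Tdh) oxidises threonine in mitochondria, and glycine C-acetyltransferase (Gcat) splits the product into glycine and acetyl-CoA. This route is active in rodents, while the human TDH gene does not make a working enzyme. Serine is made from a glycolytic intermediate by Phgdh, Psat1 and Psph in turn. The hydroxymethyltransferases Shmt1, in the cytosol, and Shmt2, in mitochondria, turn serine into glycine and load a carbon unit onto folate, and Mthfd2 oxidises that unit in mitochondria. Gnmt methylates glycine with S-adenosylmethionine and is best known from liver.

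All values are log2 intensities, in which a difference of 1 is a doubling, and a change is exposed minus control ± the standard error of the model. Adjusted p values come from limma with Benjamini-Hochberg adjustment over the 13490 genes, and a gene was called when adjusted p was under 0.05. The lung label was checked against marker genes. The surfactant gene Sftpc averaged 13.4 to 13.6 and the club cell gene Scgb1a1 13.6 in every group, while the liver gene Alb averaged from 3.26 to 3.60. At 1 week, the arrays of controls and of 0.04 mg/m3 rats stood apart from every other group. On the leading principal component over all genes, which held 63.5% of the variance, they were far from the rest. It placed 1-week 0.04 mg/m3 rats at -76.6 and 1-week controls at -58.0 on average, against 8.56 and 2.51 for 1-week rats at 0.15 and 0.60 mg/m3 and 20.4 to 38.2 for the 5 groups of 4 weeks. The 1-week 0.08 mg/m3 arrays were spread from -64.8 to 5.48. For that reason 1-week changes of the 9 genes are given against the controls of both times. In 1 array of the 4-week 0.08 mg/m3 group, replicate 1, skeletal muscle markers were far higher than in the others (6.05 relative to all arrays), and in replicate 3 of the 4-week 0.04 mg/m3 group they were also raised (3.08, against -0.04 to 0.19 in the other 4).

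The promoters of 3 genes are shown because Mthfd2 and Phgdh were called higher at the same 4-week concentrations and Gnmt was called lower at the highest of them. Each is the 250 bases before the transcript start in the RefSeq table for build GRCr8, read 5′ to 3′ on the strand of the gene, with matches to the motifs named below in capitals. They lie at chr4:117380351-117380600 on the minus strand (Mthfd2), chr2:188624790-188625039 on the minus strand (Phgdh) and chr9:21752032-21752281 on the plus strand (Gnmt). The transcript start can lie inside the gene span given below. For Gnmt, and for Psat1 and Shmt2 among the promoters counted, the 250 bases overlap that span.
Mthfd2: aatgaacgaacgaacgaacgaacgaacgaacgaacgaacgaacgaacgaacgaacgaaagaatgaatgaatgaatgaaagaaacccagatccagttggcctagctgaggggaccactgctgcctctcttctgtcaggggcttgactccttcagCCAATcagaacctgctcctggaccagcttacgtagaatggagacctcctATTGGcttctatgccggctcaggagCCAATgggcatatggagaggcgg
Phgdh: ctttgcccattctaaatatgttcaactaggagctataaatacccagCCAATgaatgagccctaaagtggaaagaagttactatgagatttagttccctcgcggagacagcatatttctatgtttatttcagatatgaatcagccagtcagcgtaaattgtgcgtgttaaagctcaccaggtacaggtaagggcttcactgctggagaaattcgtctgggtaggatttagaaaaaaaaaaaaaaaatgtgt
Gnmt: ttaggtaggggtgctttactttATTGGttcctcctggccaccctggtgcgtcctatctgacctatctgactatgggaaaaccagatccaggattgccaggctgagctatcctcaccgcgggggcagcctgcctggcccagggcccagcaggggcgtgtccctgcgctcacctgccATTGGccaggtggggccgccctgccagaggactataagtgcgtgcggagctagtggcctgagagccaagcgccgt
The motifs searched on both strands were TGATGNAA, the composite element bound by ATF4 with C/EBP proteins, ACGTG, a form of the core bound by hypoxia-inducible factors, and CCAAT, the CCAAT box, in which N stands for any base. The form GCGTG of that core was not searched. TGATGNAA was found in 0 of the 8 promoters that the table held for these genes, against 3.4% of all 33469 promoters of that length. ACGTG was found in 2 of 8 (Shmt1 and Shmt2), against 16.6% of all. CCAAT was found in 6 of 8, against 34.0% of all, and the 3 capital stretches in the Mthfd2 promoter lie 97, 48 and 23 bases before the start. The Tdh promoter is not shown.

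Tdh was higher in every exposed group at 4 weeks and had its highest level of the study at 0.15 mg/m3 (chr15:41915766-41929307 in GRCr8). The 5 arrays of 4-week rats at 0.15 mg/m3 read 6.79, 7.19, 7.21, 7.35 and 7.42, against 3.35, 3.55, 3.57, 3.78 and 3.83 in 4-week controls. The groups did not overlap, and the difference was 3.57 ± 0.21, an 11.9-fold higher intensity. No other group had an array as high as the lowest of these. In tissue with many cell types, more cells that express a gene and more RNA per cell cannot be told apart.

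The other 4-week concentrations gave smaller differences in Tdh. Rats at 0.04 mg/m3 read 4.62, 4.76, 4.94, 5.05 and 5.38, a difference of 1.33 ± 0.21 from the 4-week controls. Rats at 0.08 mg/m3 read 4.82, 5.07, 5.10, 5.18 and 5.28, a difference of 1.47 ± 0.21. Rats at 0.60 mg/m3 read 4.95, 5.17, 5.33, 5.34 and 6.11, a difference of 1.76 ± 0.21. None of these 15 arrays overlapped the controls, and the 5 at 0.60 mg/m3 lay below all 5 at 0.15 mg/m3 (-1.81 ± 0.21, 3.51-fold). The level of Tdh was therefore not ordered by concentration at 4 weeks.

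At 1 week Tdh was called higher at 0.08 mg/m3 and above. Rats at 0.08 mg/m3 read 4.28, 4.98, 5.24, 5.43 and 5.91, those at 0.15 mg/m3 5.04, 5.16, 5.56, 5.61 and 5.90, and those at 0.60 mg/m3 4.50, 4.61, 5.23, 5.38 and 5.61. The 1-week controls read 3.44, 3.50, 3.51, 3.52 and 3.67. The changes were 1.64 ± 0.21 (adjusted p = 4.02e-08 by limma, n = 5), 1.93 ± 0.21 (adjusted p = 6.79e-11) and 1.53 ± 0.21 (adjusted p = 1.93e-08), or 3.11-fold, 3.80-fold and 2.90-fold, and no exposed array overlapped the controls. The 0.04 mg/m3 rats read 3.77, 3.82, 4.04, 4.34 and 4.36. They also lay above every control, but the change of 0.54 ± 0.21 missed the threshold (adjusted p = 0.0524 by limma).

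The change in Tdh at 1 week was much the same with either set of controls, which differed by 0.09 in Tdh. Its control level was 3.62 ± 0.19 at 4 weeks and 3.53 ± 0.09 at 1 week (SD, n = 5 each). Against the 4-week controls the 1-week changes were 0.45, 1.55, 1.84 and 1.45 from 0.04 to 0.60 mg/m3. The 4-week controls are part of the comparison that picked out Tdh, so no test is given for these changes. At 0.15 mg/m3 for 4 weeks 52.6% of genes were dimmer than Tdh. In both control groups it was dim, with 17.1% of genes dimmer at 4 weeks and 14.4% at 1 week. Whether the control signal lay above the array background was not tested.

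In order of mean level, Tdh was lowest in the 1-week and 4-week controls, which overlapped, then in the 1-week 0.04 mg/m3 rats. The next 6 groups ran from 4.95 (0.04 mg/m3, 4 weeks) through 5.06 (0.60 mg/m3, 1 week), 5.09 (0.08 mg/m3, 4 weeks), 5.17 (0.08 mg/m3, 1 week) and 5.38 (0.60 mg/m3, 4 weeks) to 5.46 (0.15 mg/m3, 1 week). Each of them overlapped its neighbour below, except that the lowest did not overlap the 1-week 0.04 mg/m3 rats. The 4-week 0.15 mg/m3 group at 7.19 stood clear of all of them.

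**Figure D1:**
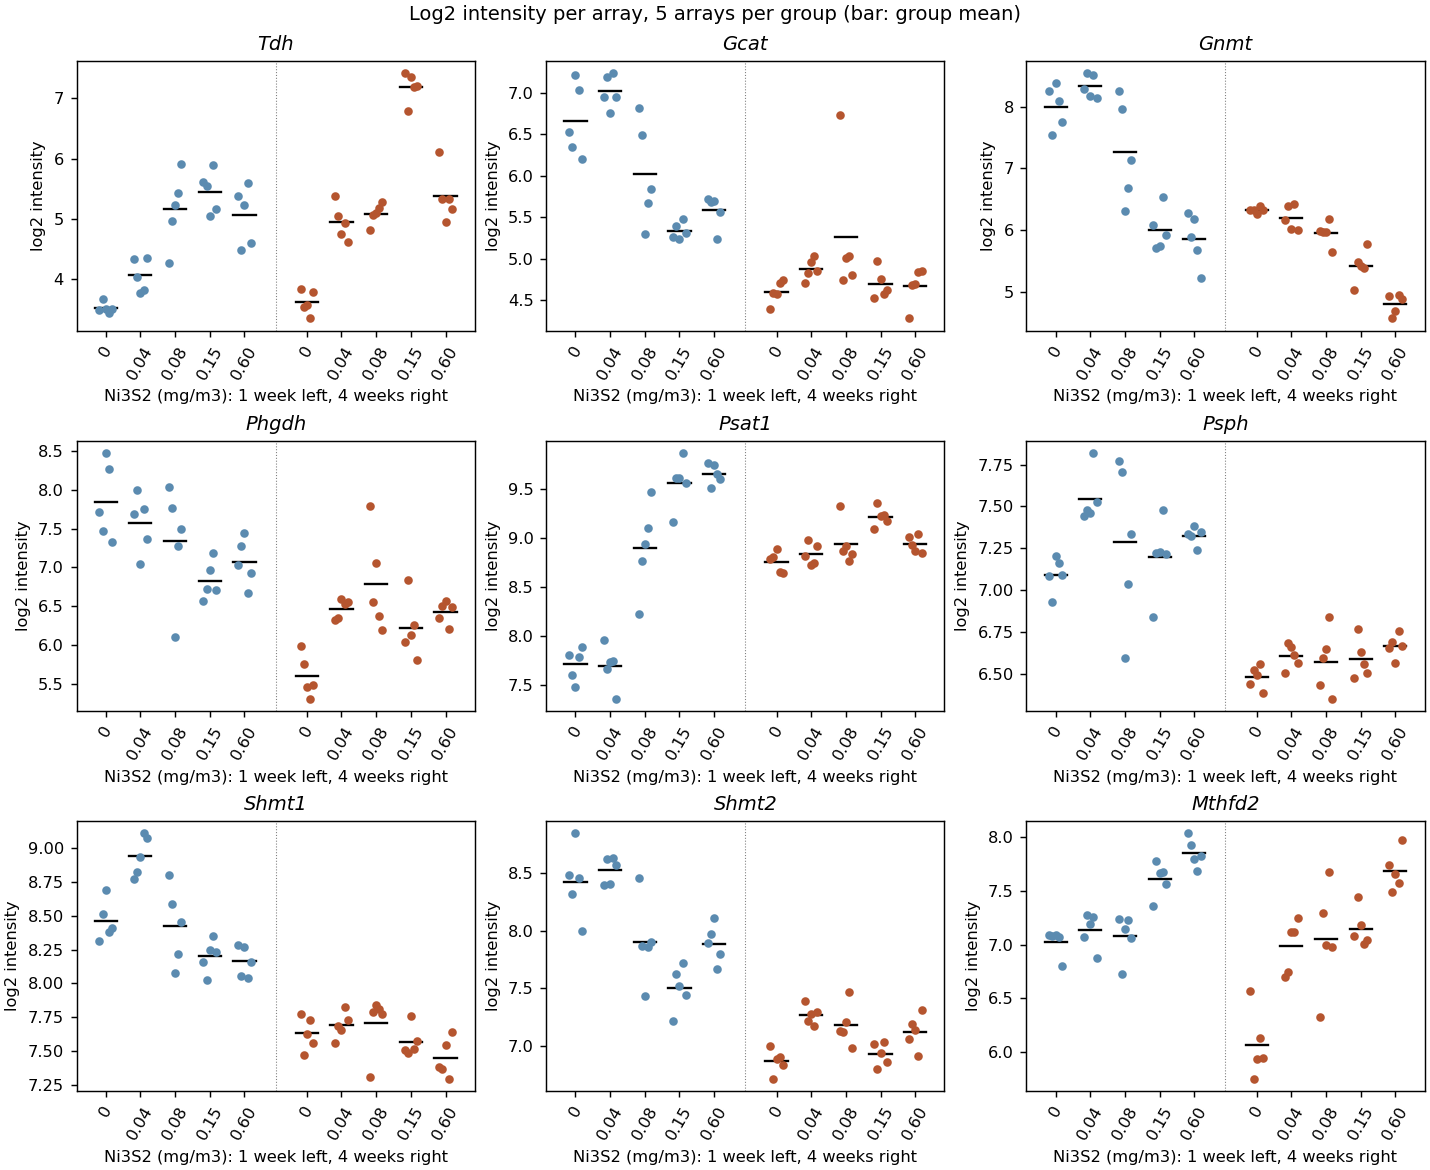
Log2 intensity of the 9 genes on each array (points) and the mean of each group (bars), by Ni3S2 concentration in mg/m3, with 1 week in blue at the left and 4 weeks in red at the right of each panel. The 5 arrays of Tdh at 0.15 mg/m3 for 4 weeks lie between 6.79 and 7.42, above all other arrays, and Mthfd2 at 4 weeks averages 7.69 at 0.60 mg/m3 and 6.06 in controls.

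Gcat, which acts on the product of Tdh, was not called at any concentration tested at 4 weeks (chr7:112475572-112481920). It averaged 4.67 ± 0.23 at 0.60 mg/m3 and 4.69 ± 0.18 at 0.15 mg/m3, against 4.60 ± 0.14 in 4-week controls (SD, n = 5 each). The change at 0.60 mg/m3 was 0.07 ± 0.23 (adjusted p = 0.88 by limma), and 0.09 at 0.15 mg/m3 was not tested. At 0.04 mg/m3 Gcat averaged 4.87 ± 0.12 (SD), a change of 0.28 ± 0.23 (adjusted p = 0.483 by limma). In a fit of the compared groups alone, 0.28 was called (adjusted p = 0.02). At 0.08 mg/m3 the arrays read 4.74, 4.80, 5.01, 5.03 and 6.74, against 4.39, 4.57, 4.58, 4.70 and 4.74 in controls, a change of 0.67 ± 0.23 (adjusted p = 0.0621). The lowest exposed array lay just above the highest control. The array at 6.74 is the one rich in skeletal muscle markers, with a mean level of its 6 markers at 6.05 above their average over all arrays, against -0.31 to 0.20 in the other 4. Without that array the change was 0.30 (adjusted p = 0.328).

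At 1 week Gcat moved the other way to Tdh. It read 5.24, 5.26, 5.32, 5.40 and 5.48 at 0.15 mg/m3 and 5.24, 5.56, 5.68, 5.70 and 5.72 at 0.60 mg/m3, against 6.20, 6.35, 6.53, 7.04 and 7.22 in 1-week controls. Both exposed groups lay below every control, with changes of -1.33 ± 0.23 (adjusted p = 2.33e-06 by limma) and -1.09 ± 0.23 (adjusted p = 6.75e-05). Against the 4-week controls, however, the same arrays were higher, by 0.74 and 0.99 (adjusted p = 0.00887 and 0.000459). When the fit held a covariate for the main axis of spread within the 1-week controls and 0.04 mg/m3 rats, the changes were -0.25 and -0.14 and were not called (adjusted p = 0.541 and 0.734). The direction for Gcat at 1 week thus turned with the choice of controls.

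Of the genes that make serine, Phgdh, the rate-limiting enzyme of the pathway, was called higher at 3 of the 3 concentrations tested at 4 weeks (chr2:188595700-188624789). The arrays at 0.04 mg/m3 read 6.32, 6.35, 6.53, 6.55 and 6.59, those at 0.08 mg/m3 6.19, 6.37, 6.56, 7.05 and 7.79, and those at 0.60 mg/m3 6.20, 6.35, 6.49, 6.50 and 6.57. The 4-week controls read 5.31, 5.45, 5.48, 5.76 and 5.98, below all of them. The changes were 0.87 ± 0.25 (adjusted p = 0.0183 by limma), 1.20 ± 0.25 (adjusted p = 0.00179) and 0.83 ± 0.25 (adjusted p = 0.0175), or 1.83-fold, 2.29-fold and 1.78-fold. At 0.15 mg/m3 the values of 5.80, 6.04, 6.13, 6.25 and 6.84 overlapped the controls, with a difference of 0.62. The highest array, 7.79 at 0.08 mg/m3, was again the one rich in muscle markers, and without it the change was 0.95 (adjusted p = 0.00968). The highest at 0.04 mg/m3, 6.59, was replicate 3, the other array with raised muscle markers, and without it the change was 0.84 (adjusted p = 0.0491). The call at 0.60 mg/m3 was lost without control replicate 4 (0.76, adjusted p = 0.0518 by limma).

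Psat1, the transaminase that follows Phgdh, changed little at 4 weeks and much at 1 week (chr1:222623553-222646187). At 4 weeks it averaged 8.94 ± 0.08 at 0.60 mg/m3 against 8.75 ± 0.11 in controls (SD, n = 5 each), a change of 0.18 ± 0.13 (adjusted p = 0.382 by limma). The 5 arrays at 0.15 mg/m3 for 4 weeks, from 9.09 to 9.36, lay above the highest control at 8.89, with a difference of 0.46. At 1 week it read 9.51, 9.60, 9.65, 9.75 and 9.76 at 0.60 mg/m3 and 9.16, 9.56, 9.61, 9.61 and 9.86 at 0.15 mg/m3, against 7.48, 7.60, 7.78, 7.81 and 7.89 in 1-week controls. These groups did not overlap, and the changes were 1.94 ± 0.13 (adjusted p = 2.29e-16) and 1.85 ± 0.13 (adjusted p = 1.26e-15), or 3.84-fold and 3.60-fold. The change at 0.08 mg/m3 was 1.19 ± 0.13 (adjusted p = 2.04e-09).

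The rise of Psat1 at 1 week was smaller against the 4-week controls but still called at 0.15 mg/m3 (0.81, adjusted p = 3.94e-06 by limma) and 0.60 mg/m3 (0.90, adjusted p = 2.94e-07). It was not called against them at 0.08 mg/m3 (0.15, adjusted p = 0.334), and at 0.04 mg/m3 it was called lower (-1.06, adjusted p = 7.02e-10). For the 0.60 and 0.15 mg/m3 rats of 1 week, Psat1 was thus called higher and Phgdh lower against the 1-week controls, and both were called higher against the 4-week controls.

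Psph, the phosphatase of the last step (chr12:32527091-32541182), varied least of these enzymes. At 4 weeks its group means reached 6.66 at 0.60 mg/m3, against 6.48 in controls, and no tested change was called, although all 5 arrays at 0.60 mg/m3 (6.56 to 6.76) lay above every control. In a fit of the compared groups alone, the change of 0.19 at 0.60 mg/m3 was called (adjusted p = 0.0284 by limma). At 1 week it was called higher at 0.04 mg/m3 alone (0.45 ± 0.12, adjusted p = 0.00731 by limma), where it averaged 7.55 ± 0.16 against 7.09 ± 0.11 in controls (SD, n = 5 each). That call was lost in a fit of the 25 arrays of 1 week alone (adjusted p = 0.0542). Its changes at the 3 higher concentrations of that week were 0.19, 0.10 and 0.23, not called in the main fit. With the axis of spread as a covariate they were 0.52, 0.79 and 0.84, all called (adjusted p = 8.55e-05, 1.28e-05 and 1.03e-06 by limma). The change at 0.60 mg/m3 was also called with array weights (adjusted p = 0.0116) and in a fit of the compared groups alone (adjusted p = 0.0092).

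Mthfd2, the mitochondrial folate enzyme, rose at every concentration tested at 4 weeks, most at 0.60 mg/m3 (chr4:117368833-117380350). Rats at 0.60 mg/m3 read 7.49, 7.57, 7.66, 7.75 and 7.98, against 5.75, 5.93, 5.94, 6.13 and 6.57 in 4-week controls. The groups did not overlap, and the change was 1.62 ± 0.15, or 3.08-fold (adjusted p = 1.9e-11 by limma). Rats at 0.04 mg/m3 read 6.70, 6.75, 7.12, 7.12 and 7.25, all above the controls, a change of 0.92 ± 0.15 (adjusted p = 4.82e-05). Those at 0.08 mg/m3 read 6.33, 6.98, 6.99, 7.29 and 7.68, a change of 0.99 ± 0.15 (adjusted p = 3.31e-05), in which the lowest array overlapped the controls and was the one rich in muscle markers. Without it the change was 1.17 (adjusted p = 3.3e-07). At 0.15 mg/m3 the values of 7.01, 7.05, 7.08, 7.18 and 7.44 were all above the controls, by 1.09.

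The 4-week group means of Mthfd2 stood in the order of concentration, unlike those of Tdh. The step between 0.60 and 0.15 mg/m3 was 0.54 ± 0.15 (adjusted p = 0.0355 by limma), and the 2 groups did not overlap. The steps between 0.15 and 0.08 mg/m3 (0.10, adjusted p = 0.71) and between 0.08 and 0.04 mg/m3 (0.07, adjusted p = 0.999) were not called. At 1 week Mthfd2 was called higher at 0.60 mg/m3 (7.86 ± 0.13 against 7.03 ± 0.13 in 1-week controls, SD, n = 5 each; 0.83 ± 0.15, adjusted p = 4.46e-06) and at 0.15 mg/m3 (0.58 ± 0.15, adjusted p = 0.000662). It was not called at 0.08 mg/m3 (0.06) or 0.04 mg/m3 (0.11). Against the 4-week controls all 4 were higher, by 1.07, 1.02, 1.54 and 1.79 from 0.04 to 0.60 mg/m3.

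The hydroxymethyltransferases moved less. Shmt2 (chr7:65244247-65249580) was called higher after 4 weeks at 0.04 mg/m3, where the arrays read 7.17, 7.22, 7.28, 7.30 and 7.39, against 6.72, 6.84, 6.89, 6.91 and 7.01 in controls. The groups did not overlap, but the change of 0.40 ± 0.12 (adjusted p = 0.0236 by limma) missed the threshold with arrays centred on their median (0.33, adjusted p = 0.0523) and without any 1 of 4 arrays, control replicates 2 (0.36) and 5 (0.39) and exposed replicates 1 (0.37) and 3 (0.40), the last of which had raised muscle markers. At 0.60 mg/m3 for 4 weeks the change of Shmt2 was 0.25 ± 0.12 (adjusted p = 0.155 by limma). It was called with array weights (adjusted p = 0.00897), in fits of the compared groups (0.0313) or the 25 arrays of 4 weeks (0.0212), and with the axis of spread as a covariate (0.0275). At 0.08 mg/m3 the change was 0.31 ± 0.12 (adjusted p = 0.101), called with array weights (adjusted p = 0.00695) and in the fit of 25 arrays (0.0104). Shmt1 (chr10:45968959-45990341) was not called at any tested 4-week concentration, with changes of 0.06, 0.07 and -0.19.

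At 1 week Shmt2 was called lower at 0.08 mg/m3 and above (-0.52, -0.92 and -0.53 in order of concentration, each ± 0.12). It averaged 7.50 ± 0.19 at 0.15 mg/m3, against 8.42 ± 0.30 in 1-week controls (SD, n = 5 each). Against the 4-week controls it was higher in the same groups, by 1.03, 0.63 and 1.02. At 0.04 mg/m3 for 1 week both probe sets of Shmt1 were higher than in controls, the brighter by 0.48 ± 0.10 (adjusted p = 0.00122 by limma) and the dimmer by 0.25 (adjusted p = 0.0675 over all probe sets). From 0.08 mg/m3 up they disagreed. At 0.08 mg/m3 the brighter one hardly changed (-0.03, adjusted p = 0.816 by limma), while the dimmer one was called higher (0.67, adjusted p = 2.39e-06 over all probe sets). At both 0.60 and 0.15 mg/m3 the brighter one was called lower (-0.30 and -0.26, adjusted p = 0.00906 and 0.0234 by limma), and the dimmer one was called higher (0.80 and 0.88, adjusted p = 1.42e-08 and 1.3e-09 over all probe sets). No direction is therefore given for Shmt1 at the 3 higher concentrations of 1 week. Over all 4011 genes with more than 1 probe set, 4.24% and 4.66% had probe sets called in opposite directions in these comparisons, against 0.15% at 0.60 mg/m3 for 4 weeks.

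Gnmt fell at 0.60 mg/m3 at both times, against the controls of the same time (chr9:21752235-21756368). At 4 weeks the arrays read 4.57, 4.69, 4.89, 4.93 and 4.95, against 6.27, 6.32, 6.33, 6.33 and 6.39 in controls. The groups did not overlap, and Gnmt fell by 1.52 ± 0.22 on the log2 scale, or 2.88-fold (adjusted p = 8.95e-07 by limma). The 0.15 mg/m3 arrays read 5.03, 5.38, 5.42, 5.49 and 5.77, all below the controls (-0.91) and all above the 0.60 mg/m3 arrays. At 0.08 mg/m3 (-0.38, adjusted p = 0.3) and 0.04 mg/m3 (-0.13, adjusted p = 0.757) the change was not called, although the 0.08 mg/m3 arrays (5.65 to 6.18) lay below every control. In a fit of the 25 arrays of 4 weeks alone, -0.38 was called (adjusted p = 0.0243). The 4-week means stood in order of concentration, 6.33 in controls, then 6.20, 5.95, 5.42 and 4.80.

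At 1 week Gnmt read 5.23, 5.68, 5.89, 6.17 and 6.27 at 0.60 mg/m3 and 5.71, 5.74, 5.92, 6.08 and 6.53 at 0.15 mg/m3, against 7.54, 7.75, 8.10, 8.25 and 8.38 in 1-week controls. The changes of -2.15 ± 0.22 (adjusted p = 1.27e-11 by limma) and -2.01 ± 0.22 (adjusted p = 6.7e-11) were the largest falls among the 9 genes at that time. Against the 4-week controls they were -0.48 (adjusted p = 0.0656) and -0.33 (adjusted p = 0.226), of the same sign and not called. With the axis of spread as a covariate they were -0.96 (adjusted p = 0.000153) and -0.65 (adjusted p = 0.0145). None of the 8 liver markers measured was called at 0.60 mg/m3 for 4 weeks, where Alb averaged 3.33 against 3.35 in controls.

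**Figure D2:**
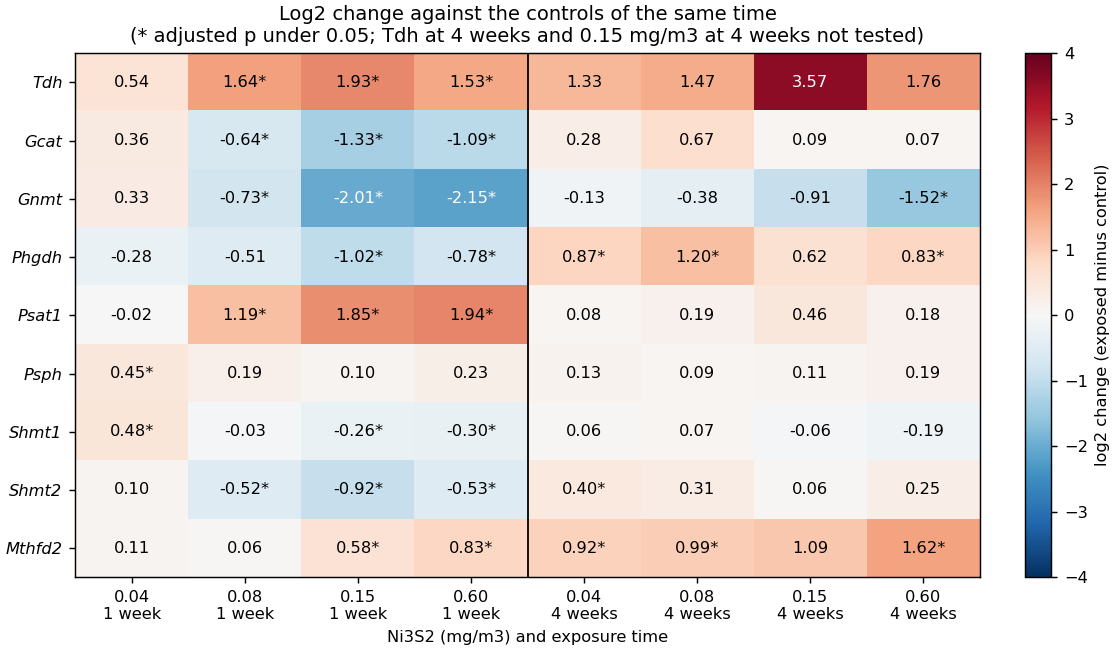
Log2 change of each gene against the controls of the same time, exposed minus control, by Ni3S2 concentration in mg/m3, with 1 week at the left and 4 weeks at the right. Red is higher and blue lower in exposed rats, stars mark adjusted p under 0.05, and Tdh at 4 weeks and the 0.15 mg/m3 column at 4 weeks were not tested. Mthfd2 at 4 weeks runs from 0.92 to 1.62 and Gnmt from -0.13 to -1.52.

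The set did not move as a block. At 4 weeks, of 8 genes tested (all but Tdh), 3 were called higher and 0 lower at 0.04 mg/m3, 2 and 0 at 0.08 mg/m3, and 2 and 1 at 0.60 mg/m3. Over all genes, 12.9%, 8.56% and 17.4% were called in these comparisons. Phgdh and Mthfd2 were the 2 called higher at all 3. At 0.15 mg/m3, where 3.51% of all genes were called, the 9 genes had a median difference of 0.11, against -0.01 over all genes. The 8 comparisons share control arrays within a time.

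Cell type markers moved in the same groups. At 0.60 mg/m3 for 4 weeks 8 of 10 markers of dividing cells were called higher, and their mean level, relative to all arrays, ran from 0.40 to 0.87 in exposed rats against -0.44 to -0.23 in controls. There 6 of 7 T cell markers were higher (-0.16 to 0.74 against -0.81 to -0.38) and 5 of 7 club cell markers lower (-0.58 to -0.42 against 0.01 to 0.32), and 5 of 7 goblet cell markers were higher (-0.04 to 0.31 against -0.95 to -0.23). In 4-week rats at 0.15 mg/m3, where Tdh was highest, the level of dividing cell markers was 0.29 to 0.60 and that of club cell markers -0.27 to -0.04, and neither overlapped the same controls. At 0.04 mg/m3 for 4 weeks all 7 T cell, 5 B cell and 7 heart muscle markers measured were higher, with heart muscle levels of 1.53 to 2.10 against -0.96 to 0.30. At 0.08 mg/m3 for 4 weeks 5 of 5 B cell, 3 of 7 T cell and 3 of 7 heart muscle markers were higher. Log2 intensities have no true zero, so no marker is listed at 0, and the part of these cells in the changes of the 9 genes was not tested.

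At 1 week, against the 1-week controls, 2 of 9 genes were called higher and 0 lower at 0.04 mg/m3, 2 and 3 at 0.08 mg/m3, 3 and 5 at 0.15 mg/m3, and 3 and 5 at 0.60 mg/m3. These shares stand beside 26.9%, 48.6%, 67.4% and 65.1% of all genes called. Higher at 0.15 and 0.60 mg/m3 were Tdh, Psat1 and Mthfd2, and lower were Gcat, Gnmt, Phgdh, Shmt2 and the brighter probe set of Shmt1, whose other probe set was called higher. Against the 4-week controls 8 of 9 were called higher and 0 lower at both of these concentrations, with 42.6% and 49.4% of all genes called. It was again 8 and 0 at 0.08 mg/m3 (64.7% of all genes), and at 0.04 mg/m3 it was 8 and 1 (81.6%). Psat1 and Mthfd2 were called higher against both sets of controls at 0.60 and 0.15 mg/m3, and neither was at 0.08 mg/m3. Tdh was higher with both sets at these 3 concentrations. It is counted among the 8 called against the 4-week controls, although those controls are part of the comparison that picked it out. At 0.60 mg/m3 for 1 week 9 of 10 dividing cell markers and 6 of 7 heart muscle markers were called higher and 4 of 5 B cell markers lower than in 1-week controls. There 6 of 9 neutrophil markers were also higher (levels of 0.01 to 0.44 against -0.96 to -0.33), 4 of 7 goblet cell markers higher and 1 lower (0.34 to 0.79 against -0.10 to 0.23), and 3 of 7 club cell markers lower (-0.44 to -0.05 against 0.07 to 0.15). The part of these cells in the changes was not tested.

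**Figure D3:**
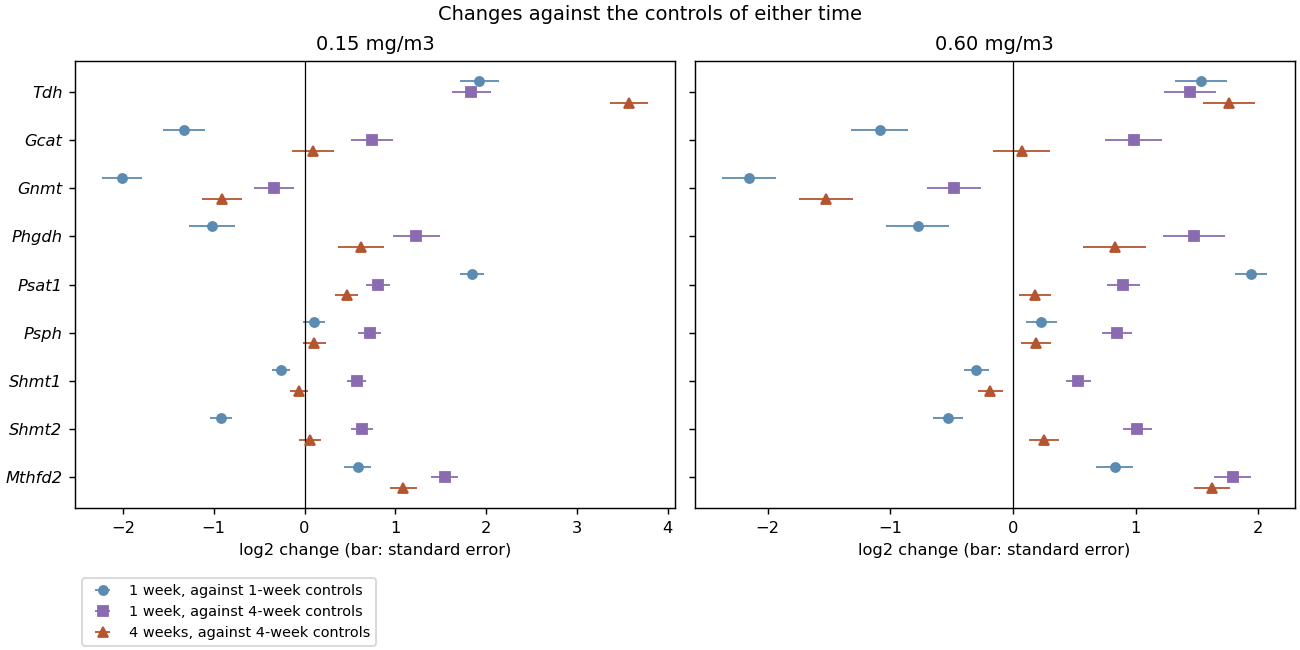
Log2 change (points) with its standard error (bars) at 0.15 mg/m3, left, and 0.60 mg/m3, right, for 1-week rats against the 1-week controls (circles), the same rats against the 4-week controls (squares), and 4-week rats against the 4-week controls (triangles). Tdh lies at 1.93 and 1.84 at 0.15 mg/m3 with the 2 sets of controls, while Gcat lies at -1.33 and 0.74.

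Within the 1-week 0.08 mg/m3 group the 5 arrays differed widely, and several of the genes ran along with the position of the array on the first principal component. The array at -64.8 had the highest Gnmt (8.26), Phgdh (8.03), Gcat (6.82) and Shmt2 (8.45) of the group and the lowest Tdh (4.28) and Psat1 (8.23). The array at 5.48 had the lowest Gnmt (6.31), Phgdh (6.10), Gcat (5.30) and Shmt2 (7.43), with Tdh at 5.24 and Psat1 at 8.94. What set the arrays apart was not tested. The calls for Gcat and Gnmt at this concentration, -0.64 and -0.73, were lost without replicate 3 (-0.46, adjusted p = 0.112, and -0.49, adjusted p = 0.0521 by limma), and that for Gcat also without replicate 4 (-0.55) or control replicates 3 (-0.50) or 4 (-0.55).

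Between neighbouring concentrations at 1 week the calls lay at the lower end, among the 9 genes as over all genes. Between 0.08 and 0.04 mg/m3 2 of 9 genes were called higher (Tdh 1.10, Psat1 1.21) and 4 lower, with 62.9% of all genes called. Among the 4 was Shmt1 by its brighter probe set (-0.52), whose other probe set was called higher (0.42, adjusted p = 0.000976 by limma over all probe sets). Between 0.15 and 0.08 mg/m3 2 were higher (Psat1 0.66, Mthfd2 0.53) and 3 lower, with 46.8% of all genes called. Between 0.60 and 0.15 mg/m3 at 1 week none of the 9 was called (limma), and 0.0148% of all genes were. The Tdh difference there was -0.39 ± 0.21 (adjusted p = 0.767). At 4 weeks Mthfd2 was the 1 gene of 8 called between 0.60 and 0.15 mg/m3 (2.9% of all genes), and 0 of 8 were called between 0.15 and 0.08 mg/m3 (18.5% of all genes) or between 0.08 and 0.04 mg/m3 (0.00741%).

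The control levels themselves differed between the times. In 4-week controls Psat1 was higher than in 1-week controls (8.75 ± 0.11 against 7.71 ± 0.17, SD, n = 5 each), by 1.04 ± 0.13 (adjusted p = 1.48e-09 by limma). The other 7 genes tested were lower, Shmt1 by its brighter probe set (-0.83), with 73.4% of all genes called. The dimmer probe set of Shmt1 was called higher (0.49, adjusted p = 7.25e-05 by limma over all probe sets), so no direction is given for Shmt1. The difference was -2.25 for Phgdh (5.59 ± 0.27 against 7.85 ± 0.50), -2.07 for Gcat (4.60 against 6.67) and -1.67 for Gnmt (6.33 against 8.00).

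The change at 4 weeks minus the change at 1 week was called for 3 of 8 genes at 0.04 mg/m3, 5 at 0.08 mg/m3 and 5 at 0.60 mg/m3, where 12%, 44.3% and 56.6% of all genes were called. Phgdh and Mthfd2 were more positive at 4 weeks at all 3 concentrations. Psat1 was less so at 0.08 and 0.60 mg/m3, and Gcat and Shmt2 were more so there. At 0.60 mg/m3 the difference was 1.61 ± 0.36 for Phgdh (adjusted p = 0.000182 by limma), 0.79 ± 0.21 for Mthfd2 (adjusted p = 0.00141) and -1.76 ± 0.19 for Psat1 (adjusted p = 2.62e-10). For Gnmt it was 0.63 ± 0.31 (adjusted p = 0.081). All of these differences rest on the 1-week controls that stood apart.

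Among 104 other genes of the related pathways, 19 were called higher and 11 lower at 0.60 mg/m3 for 4 weeks, where 17.4% of all genes were called. Of 19 genes of the amino acid response driven by the transcription factor ATF4, 9 rose and 2 fell, with a median change of 0.15 against -0.00459 over all genes. The cystine carrier Slc7a11 averaged 5.38 ± 0.48 against 3.97 ± 0.20 in controls (SD, n = 5 each), a rise of 1.41 ± 0.17 (adjusted p = 1.23e-08 by limma). The stress transcription factors Ddit3 (1.10 ± 0.13, adjusted p = 1.14e-08) and Atf3 (1.02 ± 0.11) and the pseudokinase Trib3 (1.04 ± 0.15) followed. The 2 that fell, named after their values were seen, were Ddit4 (-0.79) and Gdf15 (-0.78). Of 6 transfer RNA synthetases measured 4 rose, Aars1 (0.39), Nars1 (0.38), Tars1 (0.32) and Yars1 (0.26).

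Of 17 transporters, Slc7a5, the large neutral amino acid carrier, rose by 1.26 ± 0.14 (adjusted p = 2.31e-09 by limma) and Slc6a14 by 1.08 ± 0.23, while Slc1a4, a neutral amino acid exchanger, fell by 0.81 and Slc7a10 by 0.46. Of 16 other folate genes 3 rose and 3 fell. Mthfd1, the cytosolic counterpart of the mitochondrial folate enzymes, averaged 7.97 ± 0.17 against 8.50 ± 0.10 in controls (SD, n = 5 each), a fall where Mthfd2 rose (-0.53 ± 0.09, adjusted p = 1.47e-05). Fpgs, which adds glutamates to folate, fell (-0.74), and the folate carriers Folr2 (0.57) and Slc19a1 (0.46) rose. The remaining 2, named after their values were seen, were Mthfd1l (0.46) and Ggh (-0.37).

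Of 16 other genes of methyl group and methionine metabolism, Cth, which makes cysteine from cystathionine, averaged 5.83 ± 0.23 against 6.79 ± 0.06 in controls (SD, n = 5 each) and fell (-0.95 ± 0.15, adjusted p = 3.02e-06 by limma). Mat1a, which makes S-adenosylmethionine in liver, also fell (-0.48), and the choline dehydrogenase Chdh rose (0.44). In the glycine cleavage system Amt alone of 5 genes was called, lower (-0.57 ± 0.14, adjusted p = 0.00302). Of 13 other genes of threonine, serine and glycine breakdown, Alas2, a haem synthesis enzyme of red cell precursors, was the only one called (-0.86 ± 0.27, adjusted p = 0.0201). None of 6 purine synthesis genes and none of 7 glutathione genes was called (limma).

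**Figure D4:**
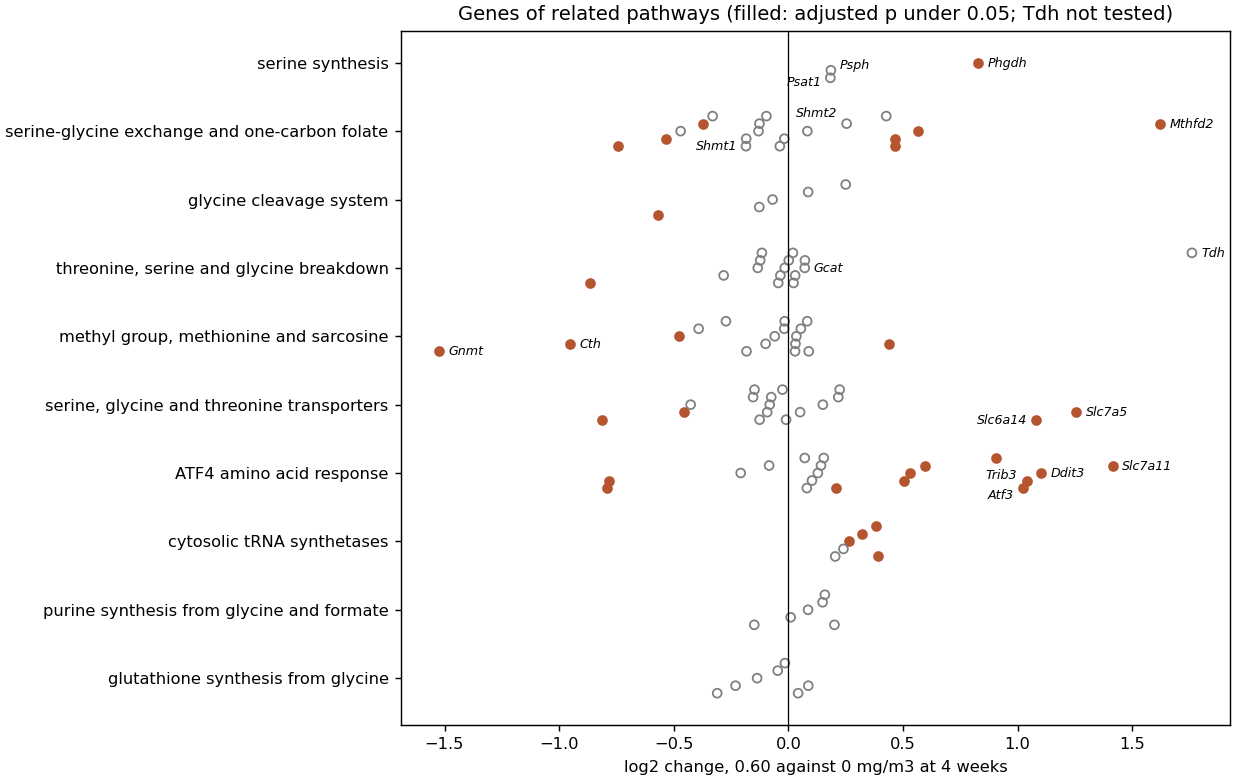
Log2 change at 0.60 against 0 mg/m3 after 4 weeks for each measured gene of 10 related pathways, 1 point per gene, filled where adjusted p was under 0.05, with the 9 genes described here and the larger named changes labelled. Slc7a11 at 1.41 and Mthfd2 at 1.62 lie at the right, and Gnmt at -1.52 lies at the left. Points within a row are spread vertically for legibility.

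At 1 week and 0.60 mg/m3 40 of the 104 genes were called higher and 33 lower against the 1-week controls, beside 65.1% of all genes. Among the larger changes were rises in Asns, asparagine synthetase (1.49 ± 0.10), Nupr1 (1.77 ± 0.15), the threonine transfer RNA synthetase Tars1 (1.43 ± 0.10), the thymidylate synthase Tyms (1.59 ± 0.15) and Mtrr (1.29 ± 0.11), and falls in Gdf15 (-2.07 ± 0.22), the transcription factor Cebpb (-1.37 ± 0.11), Aldh1l1 (-1.02 ± 0.22), Cbs (-1.01 ± 0.16) and Folr1 (-0.998 ± 0.14). Slc7a5 and Trib3, called higher at 4 weeks, averaged 6.19 and 7.50 at 0.60 mg/m3 for 1 week, against 6.23 and 7.82 in 1-week controls. For all these pathway genes the 1-week changes are given against the 1-week controls alone, which stood apart.

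Over the 10 group means several of the 9 genes ran together. Pearson's r was 0.972 between Gcat and Shmt2, 0.935 between Phgdh and Shmt2, and -0.791 between Psat1 and Gnmt. It was 0.952 between Gcat and the brighter probe set of Shmt1. No r was taken for the dimmer one, which disagreed with it at 1 week. These points share their arrays and the split between the 1-week controls and the other groups, so they are given as a description. Tdh correlated with no other of the 9 beyond -0.648 (Gnmt) and 0.65 (Psat1), and Mthfd2 with none beyond 0.454 (Tdh).

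Among 13412 other named genes, those whose 10 group means were most like Tdh were Cd99l4 (r = 0.895), Cyria (0.884), Zfp398 (0.873), Ibsp (0.820) and Fkbp5 (0.813). None of them had the size of the Tdh change at 0.15 mg/m3 for 4 weeks. Cd99l4 averaged 3.79 there, against 3.65 in 4-week controls, and Fkbp5 averaged 8.56, against 6.64. Cd99l4, Zfp398 and Ibsp were dim and varied little, with group means of 3.57 to 3.79, 3.16 to 3.42 and 3.05 to 3.63. The SD of Cd99l4 was 0.28 in 4-week rats at 0.60 mg/m3. Each r here is the highest of many over 10 points and is given as a description. The closest to Mthfd2 were Ctrc (0.927), with group means of only 4.32 to 4.61, and Galnt6 (0.909). For the other genes the 2 closest were Ilvbl and Ephb6 for Gcat (0.996 and 0.995), Galm and Taf6 for Gnmt (0.996 and 0.995), Zfp438 and Syt9 for Phgdh (0.982 and 0.981), Ube2f and Tubgcp4 for Psat1 (0.994 and 0.989), Tpd52l2 and Zfp41 for Psph (0.994 and 0.991), Swsap1 and Zdhhc4 for the brighter probe set of Shmt1 (0.995 each), and Thoc6 and Nup188 for Shmt2 (0.994 each).

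In order of mean level Mthfd2 was lowest in 4-week controls (6.06), which did not overlap the next group, and highest in 1-week rats at 0.60 mg/m3 (7.86) and 4-week rats at 0.60 mg/m3 (7.69), which overlapped. Gnmt ran from 4.80 in 4-week rats at 0.60 mg/m3, which no other group overlapped, to 8.33 in 1-week rats at 0.04 mg/m3, which overlapped the 1-week controls at 8.00. Psat1 was lowest in 1-week rats at 0.04 mg/m3 (7.69) and in 1-week controls (7.71), which overlapped, and highest in 1-week rats at 0.60 mg/m3 (9.66), which overlapped those at 0.15 mg/m3 (9.56).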

How the data were processed

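Deposited log2 intensities for 31042 probe sets and 50 arrays were used, made by the authors with RMA in Partek, per the submitters' processing notes. The version used, or whether all arrays were normalised together, is not given in the sources used here. No value was transformed again. The platform's gene annotation gives 1 symbol for 19063 probe sets, the same symbol more than once for 98 (Mthfd2 among them, under 2 gene records), which were kept, several for 474 and none for 11407. The probe set with the highest mean was kept per gene, leaving 13490 genes. A linear model with 1 mean per group was fitted to all 50 arrays with limma 3.58.1 (R 4.3.3), moderated with eBayes and tested two-sided. The fit was tested on simulated data. Symbols were matched to RefSeq by gene identifier for positions in GRCr8.

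The 9 genes and all lists were chosen with earlier results of these data known. Members were always named. Other pathway genes were named when called at 0.60 mg/m3, the 4 largest changes per list and time. Likeness took the highest Pearson r over 10 group means. Alternatives were array weights, filtering the dimmest 25% of genes, median centring, quantile normalization, an intensity trend, other probe set choices, smaller fits, a replicate block, the spread axis of the 1-week controls as a covariate, exchanged controls and leaving out each array. Leaving out repeated symbols was added after the data were seen. The labels give separate animals, and 5 arrays per group limit the precision.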

Additional observations from a re-analysis of the deposited data

Results flagged for a closer look

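In 5 of 90 sets of 5 arrays (9 genes in 10 groups) 1 array lay far from the other 4, with a gap of over 0.71 of the whole range, and chance gives about 1 in 20. In 4-week rats at 0.08 mg/m3 this was replicate 1 for Gcat (6.74, next 5.03), Psat1 (9.33, next 8.92) and Shmt1 (7.31, next 7.78). The same array had a skeletal muscle marker level of 6.05. The others were Psph at 7.82 in replicate 4 of the 1-week 0.04 mg/m3 rats (next 7.53) and Mthfd2 at 6.80 in replicate 5 of the 1-week controls (next 7.07).

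The change at 4 weeks differed from the change at 1 week by the interaction term in limma for 13 of 24 gene and concentration pairs tested (Tdh and 0.15 mg/m3 left out). Of all genes, 12%, 44.3% and 56.6% were called at 0.04, 0.08 and 0.60 mg/m3. At 0.04 mg/m3 the change at 4 weeks minus that at 1 week was 1.15 for Phgdh (adjusted p = 0.029), -0.42 for Shmt1 (adjusted p = 0.0472) and 0.81 for Mthfd2 (adjusted p = 0.00814). At 0.08 mg/m3 it was 1.31 for Gcat, 1.71 for Phgdh, -1.002 for Psat1, 0.83 for Shmt2 and 0.93 for Mthfd2, with adjusted p from 3.24e-05 to 0.00123. At 0.60 mg/m3 it was 1.16 for Gcat, 1.61 for Phgdh, -1.76 for Psat1, 0.79 for Shmt2 and 0.79 for Mthfd2, with adjusted p from 2.62e-10 to 0.00253.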

How the results depend on the processing

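Of 36 changes at 1 week, 23 were called, and from 21 to 24 with each array left out in turn. Of 24 at 4 weeks (Tdh and 0.15 mg/m3 left out), 8 were called, from 7 to 9 with arrays left out, and 5 of 21 when probe sets with a repeated symbol, and with them Mthfd2, were left out. Between neighbouring concentrations 12 of 51 were called, from 11 to 15 with arrays left out and 21 with array weights. Between the times 13 of 24 were called (11 to 14), and 8 of 8 between the controls (Tdh left out, 8 in every case). Beside these counts, 26.9% to 67.4% of all genes were called at 1 week and 8.56% to 17.4% at 4 weeks. Between neighbouring concentrations the share was 0.00741% to 62.9%, between the times 12% to 56.6%, and between the controls 73.4%. Same-numbered arrays deviated together in 14 of 40 pairs (r over 0.1, range -0.486 to 0.384). No share expected with or without pairing was set, so this check cannot decide whether the numbers pair animals. With a replicate block the counts were 23, 8, 12, 12 and 8. No 4-week change that was called against controls changed sign. Among those not called, Psph at 0.04 and 0.08 mg/m3 turned to -0.03 and -0.04 and Shmt1 at 0.04 mg/m3 to -0.03 with the axis of spread as a covariate, and Shmt1 to -0.01 with arrays centred on their median.

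With the mean of both Shmt1 probe sets its 1-week changes turned to 0.32, 0.31 and 0.25 from 0.08 mg/m3 up, and its differences between times to -0.29, -0.32 and -0.42, as the probe sets disagree. With the spread axis as a covariate, 1-week changes turned to 0.42 (0.15 mg/m3) and 0.49 (0.60 mg/m3) for Phgdh, 0.11 and 0.022 for Shmt1 and, at 0.60 mg/m3, 0.14 for Shmt2, none called. The calls for Gcat (-0.13, -0.25 and -0.14 from 0.08 mg/m3 up), Gnmt (-0.08 at 0.08 mg/m3) and Shmt2 (-0.15 and -0.16 at 0.08 and 0.15 mg/m3) were lost, and the change of Phgdh at 0.04 mg/m3 for 4 weeks was 0.54 (adjusted p = 0.0532 by limma). With the same covariate, 1-week calls were gained for Psph (0.52, 0.79 and 0.84 from 0.08 mg/m3 up) and Phgdh (-0.51 at 0.04 mg/m3). Those gained at 4 weeks were Gnmt (-0.45 and -0.65 at 0.04 and 0.08 mg/m3) and Shmt2 (0.22 at 0.60 mg/m3). Against 4-week controls, 1-week changes turned to 1.98, 1.74, 1.23 and 1.47 for Phgdh from the lowest concentration to the highest. At the 3 concentrations from 0.08 mg/m3 up they turned to 1.43, 0.74 and 0.99 for Gcat, 0.80, 0.57 and 0.53 for Shmt1 and 1.03, 0.63 and 1.02 for Shmt2, and at 0.08 mg/m3 to 0.94 for Gnmt. The cause was not tested. Tdh, Psat1 and Mthfd2 at 0.15 and 0.60 mg/m3 for 1 week kept their direction under these alternatives.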
